A study of Mus musculus with 34 samples.

Results

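The complement components C1q, C3 and C4 were followed in the hippocampus and neocortex of juvenile mice that had received kainate, nicotine or saline. The 5 genes sought were C1qa, C1qb, C1qc, C3 and C4b. A gene was measured if the array held a probe set annotated with its symbol alone, and where there were several, the one with the highest mean log2(signal + 16) over all 34 arrays gave the main value. This left 3 of the 5 genes, C1qa, C1qb and C1qc, out of 8251 genes named on the array. The annotation used here gave no probe set to C3, which was not analysed here. It gave C4b only probe sets that also carry C4a, so no value belongs to C4b alone.

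Male mice were injected intraperitoneally on postnatal day 23 with kainate at 15 mg/kg, nicotine at 10 mg/kg or saline, 3 times at intervals of 2 h, and survivors were killed on postnatal day 30. Kainate is an agonist of kainate and AMPA glutamate receptors that provokes seizures, and nicotine is an agonist of nicotinic acetylcholine receptors. The hippocampus of 5 kainate, 6 nicotine and 6 saline mice and the neocortex of 5 kainate, 6 nicotine and 6 saline mice were measured, 34 arrays in all. The labels name no strain and do not link the hippocampus array of an animal to its neocortex array, and each group holds only animals that survived the week. Levels are MAS5 signals, a linear intensity that is scaled to a common mean on each array. Signals of different probe sets cannot be set against each other, because probes differ in brightness.

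C1q is the recognition molecule of the classical complement pathway and is assembled from A, B and C chains, the products of C1qa, C1qb and C1qc. It binds antibody complexes, dying cells and, in the developing mouse brain, synapses, and it starts a cascade in which C4 and then C3 are cleaved and deposited on the target. In mouse brain, microglia, the resident macrophages, are the main source of C1q.

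The C1q genes lie side by side on mouse chromosome 4 in the order C1qb, C1qc, C1qa, between Ephb2 and Epha8, per the RefSeq gene table. The 250 bases before the start of C1qb and C1qc are shown because these neighbouring genes moved together on the arrays. They come from RefSeq (GRCm38.p6), are written 5′ to 3′ on the strand of the gene, and have in capitals each match to GAGGAA, the core letters bound by Ets factors such as Spi1, a factor of myeloid cells. The C1qb window is chr4:136886201-136886450 and the C1qc window is chr4:136892915-136893164, both on the minus strand.
C1qb: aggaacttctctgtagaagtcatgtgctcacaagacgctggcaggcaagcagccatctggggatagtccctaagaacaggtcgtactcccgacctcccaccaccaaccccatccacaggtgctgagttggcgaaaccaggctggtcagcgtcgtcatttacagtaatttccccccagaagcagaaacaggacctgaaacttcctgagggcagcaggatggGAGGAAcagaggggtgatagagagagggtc
C1qc: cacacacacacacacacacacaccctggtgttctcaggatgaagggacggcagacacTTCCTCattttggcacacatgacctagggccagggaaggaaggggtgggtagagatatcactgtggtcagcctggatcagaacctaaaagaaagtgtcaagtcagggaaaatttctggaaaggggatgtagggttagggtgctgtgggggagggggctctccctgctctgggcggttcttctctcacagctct
In C1qb the match lies 30 to 25 bases before the start on the strand of the gene. In C1qc it lies 193 to 188 bases before the start on the other strand, where it reads TTCCTC. Both strands were searched, and GAGGAA occurred in 23.3% of the 32851 windows of this length, so a match is common. Neither window held TATAAA, present in 12.4% of windows, or TTCNNNGAA, the letters of a STAT site, present in 7.02%. GAGGAA was thus the only motif matched in them. C1qa has no entry in the promoter table.

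One week after kainate, the 3 C1q chains were each more than 3-fold higher in the hippocampus than after saline. Their signals did not overlap with those of the saline arrays. The share of all probe sets whose groups did not overlap is not given here, for this or for later comparisons. C1qa, the A chain, had signals of 13370.9, 12474.4, 7395.9, 9848.5 and 14256.9 in the kainate hippocampus. In the saline hippocampus the lowest, median and highest of its 6 signals were 2645.8, 3231.2 and 3457.4. Every kainate array lay above every saline array, and the lowest kainate signal was 2.14 times the highest saline signal. C1qa averaged 11469 ± 2811 after kainate (SD, n = 5) and 3171 ± 275 after saline (SD, n = 6). The log2 fold change was 1.82 ± 0.13 (SE), a 3.52-fold difference with a 95% interval of 2.92 to 4.25, and the adjusted p of limma was 9.54e-09.

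C1qb, the B chain, had signals of 7390.4, 8193.1, 4911.4, 5218.8 and 8630.0 in the kainate hippocampus, against a lowest, median and highest of 1591.3, 1844.45 and 2135.6 in the saline hippocampus. The groups did not overlap here either, with the lowest kainate signal 2.30 times the highest saline signal. The means were 6869 ± 1709 after kainate (SD, n = 5) and 1847 ± 207 after saline (SD, n = 6). The log2 fold change was 1.86 ± 0.14 (SE), or 3.62-fold with a 95% interval of 2.98 to 4.40, at a limma adjusted p of 1.10e-08.

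C1qc, the C chain, had signals of 10688.5, 14217.7, 8604.1, 8740.9 and 14492.0 in the kainate hippocampus. Its 6 saline hippocampus arrays had a lowest signal of 2581.3, a median of 3132.95 and a highest of 4626.8. Again no saline array reached the kainate range, although C1qc varied more between saline arrays than the other chains: its SD was 23.2% of the mean there, against 8.67% for C1qa and 11.2% for C1qb. C1qc averaged 11349 ± 2867 after kainate (SD, n = 5) and 3378 ± 784 after saline (SD, n = 6), a log2 fold change of 1.74 ± 0.18 (SE). This was a 3.33-fold difference with a 95% interval of 2.56 to 4.34 and a limma adjusted p of 2.58e-06.

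All 3 measured members thus rose in the kainate hippocampus, where limma called 243 of 8695 tested probe sets, or 2.79%, at an adjusted p under 0.05. Of those 243, 160 were higher and 83 lower after kainate. The median signal of an array ran from 403.1 to 438.6 in the kainate hippocampus and from 380.6 to 390.9 in the saline hippocampus. With every array centred on its median instead, each log2 fold change fell by 0.11 and the split became 130 higher and 313 lower. The C1q changes were then 1.70, 1.74 and 1.63 for C1qa, C1qb and C1qc, still past the threshold. RNA came from whole tissue, so more cells of a type and more RNA per cell cannot be told apart.

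**Figure D1:**
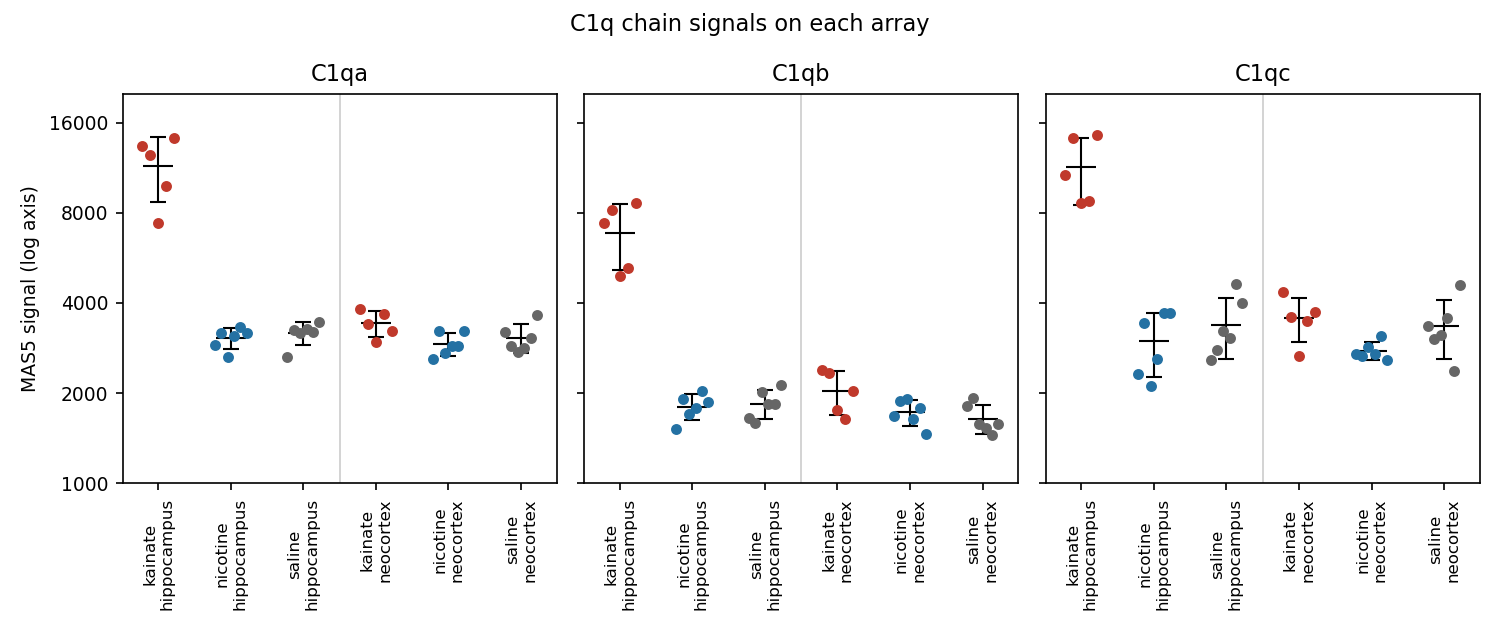
MAS5 signals of C1qa, C1qb and C1qc (log vertical axis) on each array of the 6 groups; points are arrays, and the bars show the mean and SD. The kainate hippocampus arrays lie between 7395.9 and 14256.9 for C1qa, between 4911.4 and 8630.0 for C1qb and between 8604.1 and 14492.0 for C1qc, above every other array in each panel.

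The 5 kainate hippocampus arrays ranked alike for the C1q chains. Replicate 3 was lowest and replicate 4 next lowest for each of C1qa, C1qb and C1qc, and replicate 5 was highest for all 3. The summed signal of 19 microglia and macrophage markers was also lowest in replicate 3, at 33391.9, and next lowest in replicate 4, at 39730.2. In replicates 1, 2 and 5 it was 51937.3, 52103.2 and 49797.5. This order was not particular to microglia. Replicates 3 and 4 were also the lowest for the summed astrocyte, oligodendrocyte, endothelial and choroid plexus markers. The neuronal, leukocyte and erythroid sums did not follow it. Replicates 3 and 4 also had the highest array medians of the group, 438.6 and 436.8. The cause of the shared order was not tested.

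A second, dimmer probe set of C1qb did not follow the main one. Its signals were 441.8, 344.5, 643.8, 425.1 and 264.7 in the kainate hippocampus, against a lowest, median and highest of 172.6, 276.95 and 411.1 in the saline hippocampus. The groups overlapped, with 3 of 5 kainate arrays above every saline array, and the order of the kainate arrays ran against that of the main probe set: replicate 3 was highest and replicate 5 lowest. The log2 fold change was 0.59 ± 0.28 (SE), and it did not pass the test (limma adjusted p 0.341). Its 95% interval, 0.01 to 1.16, lay below that of the main probe set, 1.57 to 2.14.

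In the neocortex the same treatment gave much smaller differences, and none passed the test. C1qa had signals of 3830.8, 3393.6, 2967.2, 3671.5 and 3233.9 after kainate, against a lowest, median and highest of 2737.3, 2960.05 and 3648.3 after saline. The ranges overlapped, with 2 of 5 kainate arrays above every saline array, and the log2 fold change was 0.16 (95% interval -0.03 to 0.35; limma adjusted p 0.903). C1qb had signals of 2390.2, 2336.5, 1753.6, 1634.5 and 2033.6 after kainate, against 1446.1, 1580.5 and 1922.4 as the lowest, median and highest after saline. Here 3 of 5 kainate arrays lay above every saline array. Its log2 fold change was 0.29 (95% interval 0.06 to 0.52), with an unadjusted p of 0.0165 in limma and an adjusted p of 0.838.

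C1qc had signals of 4348.8, 3580.9, 2669.6, 3469.7 and 3728.3 in the kainate neocortex, inside the saline range of 2372.8 to 4607.0 with its median of 3243.1. The log2 fold change was 0.10 (95% interval -0.18 to 0.38; limma adjusted p 0.949). Across the array only 1 of 8695 probe sets, or 0.0115%, was called for kainate in the neocortex. The intervals leave room for changes of up to 1.28-fold for C1qa, 1.44-fold for C1qb and 1.30-fold for C1qc in this region.

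The kainate effect on the C1q chains differed between the regions by a test of the difference itself. The log2 effect in the hippocampus minus that in the neocortex was 1.65 ± 0.16 (SE) for C1qa, at a limma adjusted p of 1.09e-08. For C1qb it was 1.56 ± 0.18 (SE; limma adjusted p 3.43e-07), and for C1qc 1.64 ± 0.24 (SE; limma adjusted p 3.15e-05). This contrast called 69 of 8695 probe sets, or 0.794%, and the C1q genes were 3 of them. The arrays of a mouse could not be linked across regions, so the fit took all 34 as independent.

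Nicotine did not move any C1q chain past the threshold in either region. In the nicotine hippocampus the lowest, median and highest signals were 2633.0, 3137.25 and 3325.4 for C1qa, against 2645.8, 3231.2 and 3457.4 with saline. C1qb had 1518.6, 1826.3 and 2036.9 with nicotine, against 1591.3, 1844.45 and 2135.6 with saline, and C1qc had 2118.0, 3017.1 and 3714.3 with nicotine, against 2581.3, 3132.95 and 4626.8 with saline. All of these ranges overlapped. The log2 fold changes were -0.05 for C1qa (95% interval -0.31 to 0.20), -0.03 for C1qb (-0.30 to 0.24) and -0.19 for C1qc (-0.55 to 0.18). Limma called 0 of 8695 probe sets, or 0%, for nicotine in the hippocampus, with 504 at an unadjusted p under 0.05.

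In the nicotine neocortex C1qa ran from 2600.5 to 3233.1 with a median of 2878.0, and C1qb from 1464.5 to 1919.4 with a median of 1730.55. C1qc had a lowest, median and highest of 2582.4, 2708.2 and 3114.8 with nicotine, against 2372.8, 3243.1 and 4607.0 with saline. Each range overlapped with that of the saline neocortex. The log2 fold changes against saline were -0.06 for C1qa (95% interval -0.24 to 0.12), 0.07 for C1qb (-0.15 to 0.29) and -0.24 for C1qc (-0.51 to 0.02), with limma adjusted p-values of 0.832, 0.837 and 0.533. Limma called 0 probe sets here too, 0% of those tested, with 835 at an unadjusted p under 0.05. The nicotine effect in the hippocampus minus that in the neocortex was 0.01 for C1qa, -0.10 for C1qb and 0.06 for C1qc, and limma called 0% of probe sets for this difference, with 328 at an unadjusted p under 0.05.

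**Figure D2:**
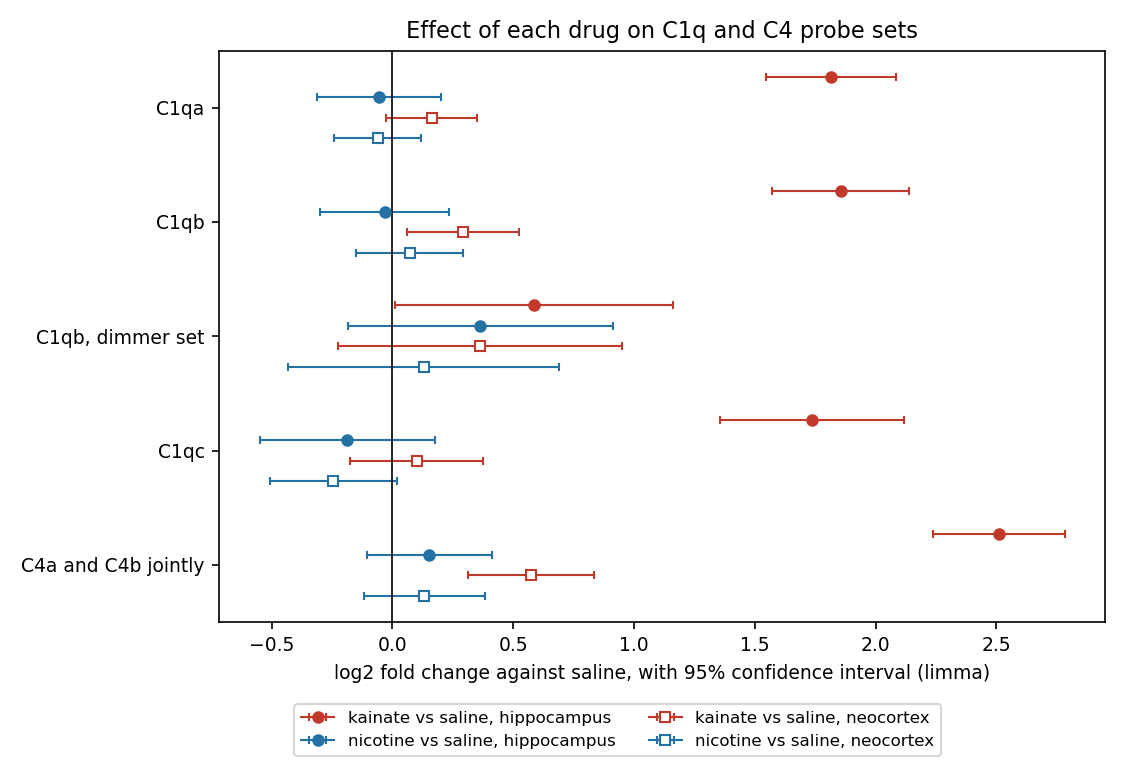
Log2 fold change against saline (horizontal axis, with the 95% confidence interval of limma) for kainate in red and nicotine in blue, in the hippocampus (filled circles) and neocortex (open squares), for the 3 C1q chains, the dimmer C1qb probe set and the probe set shared by C4a and C4b. The kainate hippocampus values stand at 1.82, 1.86 and 1.74 for the chains and 2.51 for the C4 probe set, while the dimmer C1qb set stands at 0.59.

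Kainate and nicotine were also compared directly. In the hippocampus the chains were 3.66-fold (C1qa), 3.70-fold (C1qb) and 3.79-fold (C1qc) higher after kainate, with limma adjusted p-values of 4.71e-09, 7.39e-09 and 5.31e-07, where 2.42% of probe sets were called. In the neocortex the log2 differences were 0.22 (95% interval 0.03 to 0.41), 0.22 (-0.01 to 0.45) and 0.34 (0.07 to 0.62), each at a limma adjusted p of 0.998, where 0.0345% of probe sets were called. These comparisons share the kainate arrays with the comparisons against saline.

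Without a drug, the C1q chains had similar signals in the regions. The saline hippocampus and saline neocortex averaged 3171 ± 275 and 3057 ± 335 for C1qa, 1847 ± 207 and 1645 ± 182 for C1qb, and 3378 ± 784 and 3344 ± 739 for C1qc (SD, n = 6 each). The log2 differences, hippocampus over neocortex, were 0.05 (95% interval -0.17 to 0.28), 0.16 (-0.08 to 0.41) and 0.01 (-0.31 to 0.34). None was called, in a comparison where limma called 10.5% of probe sets.

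Ordered by mean log2 level over the 6 groups, each chain was highest in the kainate hippocampus and next highest in the kainate neocortex. Those neighbours differed by an exact two-sided permutation test for C1qa, C1qb and C1qc, at p = 0.00794 each, the smallest that 5 arrays against 5 allow, or 0.0238 after adjustment over the 45 pairs of groups compared. The arrays of a mouse could not be linked across regions, so this test also took the arrays as independent. No other neighbours in the order differed beyond their spread. For each gene 5 of 15 pairs of groups passed the adjusted exact test, and all 5 had the kainate hippocampus on one side.

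To ask whether the chains changed to unequal extents, the log2 difference between chains on the same array was compared between kainate and saline. In the hippocampus C1qa minus C1qb shifted by -0.04 (95% interval -0.24 to 0.16), C1qa minus C1qc by 0.08 (-0.26 to 0.44) and C1qb minus C1qc by 0.12 (-0.12 to 0.40). An exact two-sided permutation test gave an adjusted p of 0.677 for each, and for each of the 3 shifts in the neocortex, over the 6 shifts tested. The intervals are those of the exact test inverted.

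The brighter of the probe sets annotated to both C4a and C4b also rose in the kainate hippocampus. C4b encodes complement component C4 of the mouse and C4a its close copy, and the values below are attributed to neither alone. Its signals were 5172.6, 5581.0, 3477.1, 4194.9 and 5394.3 in the kainate hippocampus, against a lowest, median and highest of 705.0, 815.3 and 928.6 in the saline hippocampus. The lowest kainate signal was 3.74 times the highest saline signal, and replicates 3 and 4 were again the lowest. The log2 fold change was 2.51 ± 0.13 (SE), or 5.70-fold, at a limma adjusted p of 6.71e-11.

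In the neocortex this C4 probe set had signals of 843.1, 905.2, 695.0, 734.6 and 971.3 after kainate, against 440.2, 557.3 and 621.2 as the lowest, median and highest after saline. No saline array reached the lowest of the 5 kainate arrays, yet the log2 fold change of 0.57 ± 0.13 (SE) had a limma adjusted p of 0.251 over all probe sets (unadjusted p 0.000182). The kainate effect was larger in the hippocampus by 1.94 ± 0.18 (log2, SE; limma adjusted p 5.67e-09). The C4 probe set was higher in the saline hippocampus than in the saline neocortex, 813 ± 72.6 against 551 ± 64.5 (SD, n = 6 each), a log2 difference of 0.55 ± 0.12 (SE; limma adjusted p 0.00114). With nicotine the log2 fold change was 0.15 (95% interval -0.11 to 0.41) in the hippocampus and 0.13 (-0.12 to 0.38) in the neocortex, neither called. A second shared C4 probe set stayed between 1.7 and 115.8 over all arrays and was too dim to test.

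Other genes of the pathway were taken from a list of 56, of which 35 were measured and 21 were bright enough to test in the hippocampus. After kainate 3 of the 21 rose, 0 fell and 18 did not pass the test, against the 2.79% called over all probe sets. The median log2 fold change of the 21 was 0.19, and that of all tested probe sets was 0.01. The 3 were C3ar1, the receptor of the C3 fragment C3a, Clu, or clusterin, which restrains the membrane attack complex, and Pros1, protein S, which in human plasma binds the complement inhibitor C4BP.

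C3ar1 averaged 384 ± 94.4 in the kainate hippocampus (SD, n = 5) and 150 ± 89.0 in the saline hippocampus (SD, n = 6). The kainate arrays ran from 301.6 to 505.6 and the saline arrays from 32.0 to 234.1, with no overlap, and the log2 fold change was 1.51 ± 0.39 (SE; limma adjusted p 0.0383). Leaving out any 1 of the 5 kainate arrays, or saline replicate 5 or 6, ended this call (adjusted p 0.0580 to 0.110). In the nicotine hippocampus C3ar1 averaged 250 ± 72.7 (SD, n = 6), a log2 fold change against saline of 0.91 (unadjusted p 0.0240, limma adjusted p 0.851). Kainate over nicotine was 0.60 (95% interval -0.22 to 1.41), which was not called.

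Clu averaged 26459 ± 3652 in the kainate hippocampus (SD, n = 5) and 15613 ± 2127 in the saline hippocampus (SD, n = 6), a log2 fold change of 0.76 ± 0.11 (SE; limma adjusted p 0.000119). A second Clu probe set gave 0.78. Pros1 averaged 705 ± 134 after kainate (SD, n = 5) and 357 ± 84.3 after saline (SD, n = 6), a log2 fold change of 0.96 ± 0.17 (SE; limma adjusted p 0.00177). In both genes every kainate array lay above every saline array. The kainate effect on Clu was larger in the hippocampus than in the neocortex by 0.64 (log2; limma adjusted p 0.0199), a call lost without kainate hippocampus replicate 2 or 5 or kainate neocortex replicate 2, and with median centring (adjusted p 0.144). For Pros1 the difference was 0.86 (limma adjusted p 0.0460), and 24 of 32 alternatives ended that call (adjusted p up to 0.172).

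Several genes next to C1q in the cascade had log2 fold changes above 0.5 in the kainate hippocampus that did not pass. C2, the protease that joins C4 in the C3 convertase, averaged 355 ± 53.5 after kainate (SD, n = 5) and 222 ± 61.8 after saline (SD, n = 6). Its log2 fold change was 0.67 (limma adjusted p 0.0918). In the nicotine hippocampus C2 averaged 316 ± 51.4 (SD, n = 6). Its log2 fold change against the same saline arrays was 0.51 (limma unadjusted p 0.0174, adjusted p 0.851). Kainate over nicotine was 0.16 for C2, which was not called (limma adjusted p 0.875). Serping1, the inhibitor of the C1 proteases, averaged 776 ± 117 after kainate (SD, n = 5) and 428 ± 146 after saline (SD, n = 6), a log2 fold change of 0.91 (limma adjusted p 0.103). Against nicotine it was 1.09 (limma adjusted p 0.0461), a call that 14 of 22 alternatives ended (adjusted p up to 0.137).

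Itgax, the alpha chain of complement receptor CR4, had a log2 fold change of 0.92 with kainate (limma adjusted p 0.0734) and 0.90 with nicotine (limma adjusted p 0.851), against the same saline arrays. It averaged 488 ± 94.6 in the kainate hippocampus (SD, n = 5), 479 ± 95.8 in the nicotine hippocampus and 272 ± 137 in the saline hippocampus (SD, n = 6 each). Kainate over nicotine was 0.03 (95% interval -0.53 to 0.59). The lowest fold change of the list was that of C1qbp, the C1q binding protein, which averaged 189 ± 125 after kainate and 353 ± 154 after saline, a log2 fold change of -0.90 (95% interval -1.80 to 0.00; limma adjusted p 0.352).

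C1ra, a C1 protease, had 0.30 (95% interval -0.60 to 1.20) and C5ar1, the C5a receptor, 0.00 (-0.55 to 0.55). Cfb, the alternative-pathway protease, had -0.57 (-1.49 to 0.34), and Cfp, properdin, 0.19 (-0.26 to 0.63). The membrane inhibitor Cd59a had 0.02 (-0.33 to 0.37). Itgam and Itgb2, which form the C3 receptor CR3, were too dim to test. Itgam averaged 296 ± 132 in the kainate hippocampus (SD, n = 5) and 78.2 ± 49.5 in the saline hippocampus (SD, n = 6), and Itgb2 243 ± 94.2 after kainate and 90.3 ± 62.8 after saline. In the neocortex 0 of 20 tested list genes were called after kainate by limma, and with nicotine 0 were called in either region.

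**Figure D3:**
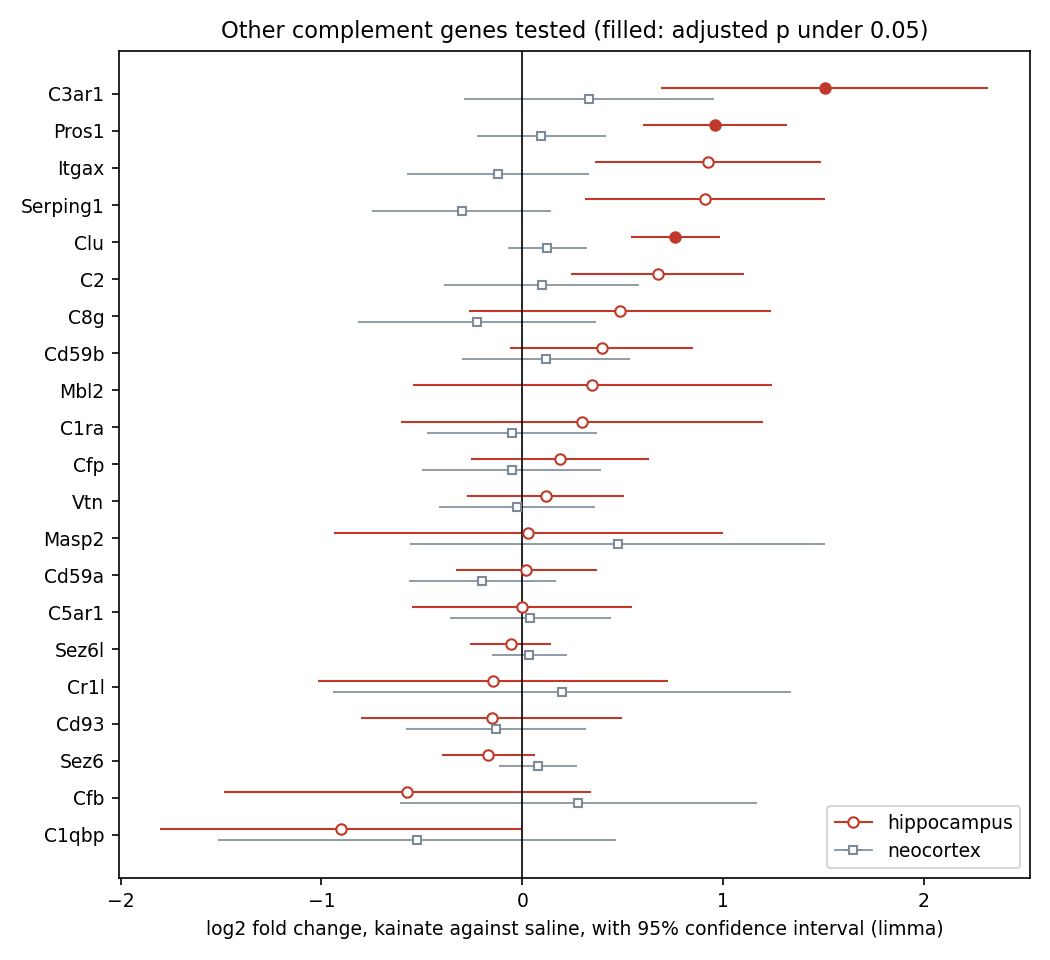
Log2 fold change of kainate against saline (horizontal axis, with the 95% confidence interval of limma) for the 21 other complement genes tested in the hippocampus (red) and, where tested, in the neocortex (grey); filled symbols have an adjusted p under 0.05. C3ar1 at 1.51, Pros1 at 0.96 and Clu at 0.76 are filled, and all other intervals are drawn open.

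Markers of the cells that make C1q moved in the same samples. Of 23 microglia and macrophage markers 19 were measured and 15 tested. In the kainate hippocampus 12 of the 15 were called higher, against 2.79% called over all probe sets. The 12 include Aif1 and Lyz2, which were too dim to test in the neocortex. They averaged 577 and 692 in the kainate hippocampus against 151 and 93.0 in the saline hippocampus. The kainate arrays thus helped them pass the filter on mean level, and both the count and the median include them. The median log2 fold change over the 15 was 1.90. Those not called were Cd14, Fcgr3 and Spi1, with log2 fold changes of 0.51, 0.02 and 1.09 (limma adjusted p 0.0549, 0.991 and 0.174). The summed signal of the 19 ran from 33392 to 52103 in the kainate hippocampus, from 12350 to 14317 in the nicotine hippocampus and from 12820 to 13504 in the saline hippocampus. Csf1r, the receptor that microglia need to survive, averaged 5937 ± 1045 after kainate (SD, n = 5) and 2314 ± 225 after saline (SD, n = 6), and Cx3cr1, the fractalkine receptor, 1394 ± 228 after kainate and 766 ± 86.4 after saline. In the neocortex 0 of 13 tested markers were called for kainate, although the sums of 15173 to 16807 after kainate and 12827 to 13950 after saline did not overlap. Their part in the C1q differences was not tested.

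Of 12 tested astrocyte markers 5 were called higher in the kainate hippocampus, with a median of 0.36, against 2.79% called over all probe sets. In the neocortex 1 of 12 tested astrocyte markers was called higher after kainate, the only 1 of 8695 probe sets called there. Of 12 neuronal, 10 endothelial, 7 oligodendrocyte and 4 blood leukocyte markers tested in the hippocampus, 0 were called by limma for kainate. The 13 measured leukocyte markers summed to 1504 to 1976 after kainate and 1396 to 2067 after saline in the hippocampus, and these ranges overlap.

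**Figure D4:**
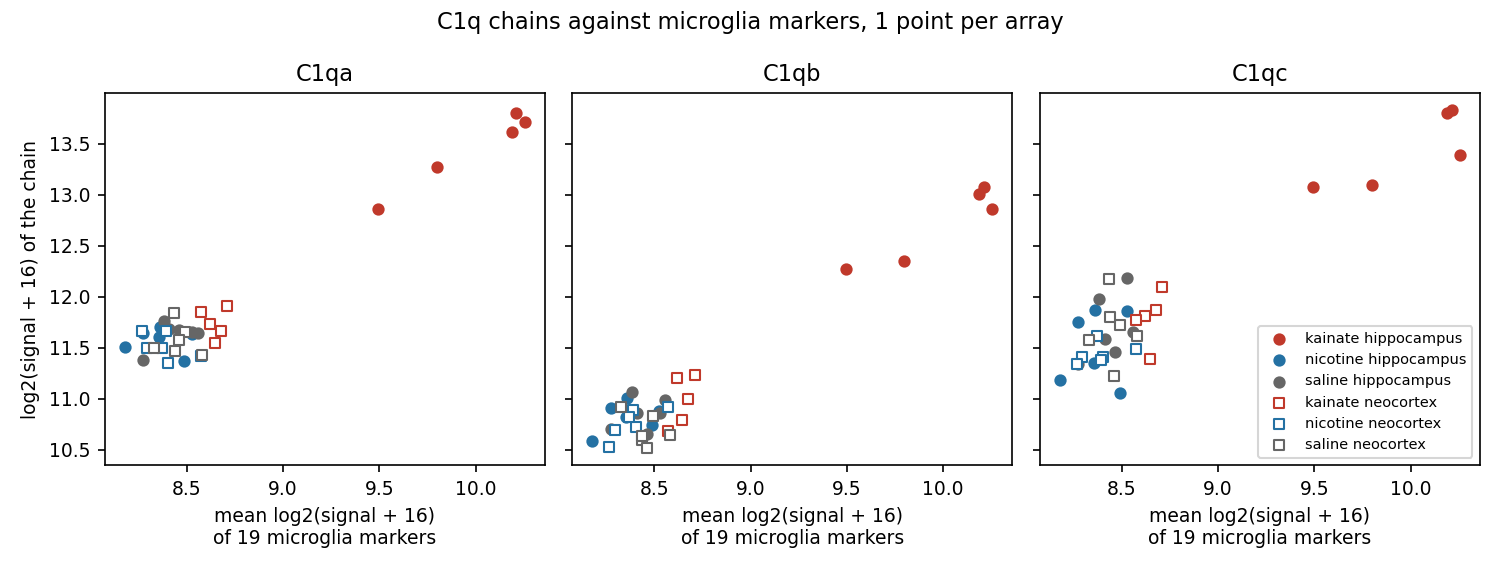
Log2(signal + 16) of each C1q chain (vertical axis) against the mean log2(signal + 16) of 19 microglia markers (horizontal axis), 1 point per array, coloured by treatment, filled for hippocampus and open for neocortex. The 5 kainate hippocampus arrays stand apart at the upper right of each panel, and the other 29 arrays lie at the lower left. Among these, the kainate neocortex arrays run from 8.57 to 8.71 on the horizontal axis and the saline neocortex arrays from 8.33 to 8.58.

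Whether C1qa and C1qb stood higher against the microglia markers of the same array after kainate depended on which markers were averaged. Against the mean log2(signal + 16) of all 19, the shift in the hippocampus, kainate minus saline, was 0.26 for C1qa (95% interval 0.12 to 0.40; exact permutation test, adjusted p 0.0195 over 12 comparisons) and 0.30 for C1qb (0.10 to 0.51; exact permutation test, adjusted p 0.0364). For C1qc it was 0.18 (-0.19 to 0.54; exact permutation test, adjusted p 0.475). The 19 include Itgam, Fcer1g, Ptprc and Adgre1, which were too dim to test. Against the 15 tested markers, an alternative added after the data were seen, the shifts were 0.15 for C1qa and 0.19 for C1qb (exact permutation test, adjusted p 0.244 each) and 0.07 for C1qc (adjusted p 0.790), and none passed. With all 19, the C1qa call was also lost without kainate replicate 5 (adjusted p 0.0571). The C1qb call was lost when any single array other than saline replicate 6 was left out, at adjusted p-values of 0.0571 to 0.0686. With a pseudocount of 1 both calls were lost as well, with shifts of 0.18 (adjusted p 0.0779) and 0.22 (adjusted p 0.0935) in the exact permutation test.

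Against the astrocyte marker mean the hippocampal shifts were 1.30, 1.34 and 1.22 for C1qa, C1qb and C1qc, each at an adjusted p of 0.00866 in the exact permutation test, with no overlap between the groups. In the neocortex none of the 6 shifts against microglia or astrocyte markers passed, and they ran from -0.09 to 0.16.

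Over the 34 arrays the genes whose log2 values were most like those of a C1q chain included the other chains and microglial genes. Among 6430 genes compared, those with the highest Pearson r with C1qa were C1qb (0.969), Ctss (0.954), which encodes the lysosomal protease cathepsin S, C1qc (0.950), Tyrobp (0.943), an adaptor of myeloid receptors, and Laptm5 (0.942). For C1qb they were C1qa (0.969), Ctss (0.954), Laptm5 (0.953), C1qc (0.944) and Tyrobp (0.933). For C1qc they were C1qa (0.950), C1qb (0.944), Tyrobp (0.929), Itgb5 (0.909) and Clu (0.909).

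These coefficients rest largely on the 5 kainate hippocampus arrays, which all the genes share. Without them, over 29 arrays, r was 0.646 between C1qa and C1qc, 0.507 between C1qb and C1qc and 0.412 between C1qa and C1qb. Over the same arrays C1qa had -0.02 with Laptm5, 0.215 with Ctss and 0.511 with Tyrobp. C1qb had 0.299 with Laptm5, 0.347 with Ctss and 0.411 with Tyrobp. C1qc had 0.541 with Tyrobp, 0.572 with Itgb5 and 0.571 with Clu. For deviations from the 6 group means the chains had 0.598 (C1qa and C1qb), 0.624 (C1qa and C1qc) and 0.641 (C1qb and C1qc), and C1qc had 0.716 with Clu. All coefficients are descriptions of arrays with 1 scaling and carry no test.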

How the data were processed

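Per the submitters' processing notes the authors made the deposited signal intensities with MAS5, whose version is not given in the sources used here. They are linear values, and the 2% trimmed mean of each array was 1000.5 to 1000.6. Per the labels' protocols, 12 µg of TRIzol-extracted RNA per sample was made into biotin-labelled cRNA. Array medians ran from 375.8 to 438.6, Gapdh 3′/5′ ratios from 0.81 to 1.12 and correlations between arrays from 0.917 to 0.969, and 0 pairs were identical. The 66 control probe sets were left out of 12488, and 10833 of the others carried 1 symbol in the platform annotation.

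Fold changes are differences of log2(signal + 16), so those of dim genes are understated. They were tested for 8695 probe sets at or above the 30th percentile of mean level. limma 3.58.1 (lmFit, eBayes with trend; R 4.3.3) was fitted to the 17 arrays of a region for treatments and to all 34 for regions, with Benjamini-Hochberg adjustment and a threshold of 0.05; it was tested on simulated data. Exact permutation tests ran over all splits of the pooled arrays of a pair of groups, computed with numpy 2.4.6. The number of arrays limits the precision.

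Members, gene lists and tests were chosen with earlier results of these data known. Named genes were the members, the complement genes called for a drug against saline, those needed to say what was not called, and the 5 most like each member. Where a complement gene had several probe sets, the brightest was used. The planned tests of members counted 5 genes, and with 3 measured the adjustments ran over 45 and 12 tests. Replicate numbers in the labels were checked as pairs: only kainate and nicotine arrays of the hippocampus met the criterion, with correlations of deviations from 0.118 to 0.278 in all 5 pairs.

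Alternatives were the scaling, pseudocount, filter, moderation, array weights, blocks, other probe sets, all arrays in 1 fit, and each array left out. Averaging only tested markers was added later.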

Additional observations from a re-analysis of the deposited data

Results flagged for a closer look

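The kainate effect on each C1q chain differed between the regions by the interaction term of limma. The log2 effect in the hippocampus minus that in the neocortex was 1.65 for C1qa, 1.56 for C1qb and 1.64 for C1qc.

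In the saline hippocampus C1qa had 1 low array, replicate 1, at a signal of 2645.8. Its gap to the nearest of the other 5 arrays was 0.687 of the range of the group, above the limit of 0.625 of Dixon's test for 6 samples. Chance flags about 1 in 20 groups. Without this array the C1qa fold change of kainate against saline in the hippocampus was 1.76 (log2).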

How the results depend on the processing

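In the hippocampus C1qa, C1qb and C1qc were called for kainate against saline under every alternative that kept their main probe sets, with log2 fold changes of 1.70 to 1.96 for C1qa and 1.63 to 1.83 for C1qc. The dimmer C1qb probe set alone lost its calls, at 0.59 against saline, 0.22 against nicotine and 0.22 for the difference between regions. Median centring gave 443 probe sets called for kainate against saline in the hippocampus and 1 for kainate against nicotine in the neocortex. Quantile normalization gave 2 for kainate against saline in the neocortex and array weights gave 2, and array weights gave 8 for kainate against nicotine there. With the replicate number as a block these neocortical counts were 3 against saline and 5 against nicotine. The block moved the hippocampal counts for kainate to 323 against saline and 255 against nicotine. The block also ended the C3ar1 call (adjusted p 0.0573) and that of the regional difference of Pros1 (0.172). It changed no other call of the C1q chains, the C4 probe set, Clu, Pros1 or Serping1. C3ar1 was also lost with quantile normalization (0.0668), no filter (0.0522) and no intensity trend (0.0549). Blocking on clusters of control probe sets gave 3 for kainate against saline in the neocortex. Leaving out 1 array at a time gave 1 to 5 for kainate against nicotine in the neocortex: 1 without kainate replicate 1, 2 or 4 or nicotine replicate 1 or 5, and 5 without kainate replicate 5.

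Differences close to 0 changed sign, none of them called. The other C1qb probe set gave 0.36 for nicotine in the hippocampus, -0.19 for saline hippocampus over saline neocortex and 0.24 for the regional difference of the nicotine effect. The control cluster block gave 0.016 for C1qa with nicotine in the neocortex and -0.069 for C1qc between saline regions, and median centring gave -0.037 for the C1qa nicotine effect between regions. With 1 array left out, C1qb with nicotine in the hippocampus ran from -0.074 to 0.016 and C1qc between saline regions from -0.084 to 0.11. The regional difference of the nicotine effect ran from -0.046 to 0.047 for C1qa and from -0.040 to 0.15 for C1qc. Within arrays of the hippocampus, C1qa minus C1qb ran from -0.084 to 0.010 and C1qa minus C1qc from -0.014 to 0.14. In the neocortex C1qa ran from -0.082 to 0.029 against microglia and from -0.017 to 0.089 against astrocyte markers, and C1qc from -0.18 to 0.014 and from -0.14 to 0.073 against the same markers. Of 12 shifts against markers 5 passed, against 3 with a pseudocount of 1, 3 with only the markers bright enough to test, an alternative chosen after seeing the data, and 3 to 5 with 1 array left out. The cause of these changes was not tested, and the number of arrays limits what can be told apart.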
